A study of Mus musculus with 2688 samples.

Results

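The comparison set microglia of the hippocampus against microglia of the cortex in CD1 mice of 3 weeks, using 344 single cells of the 2402 that were kept in the whole series. A cell belonged to it when its label placed it in 1 of the 3 hippocampus samples or 1 of the 3 cortex samples of that age, all on 1 plate, and when at least 500 genes were detected and at most 20% of its reads were mitochondrial. The cortex samples held 58, 58 and 54 kept cells (170 of 190 wells) and the hippocampus samples 60, 62 and 52 (174 of 190 wells). Both groups were untreated animals that the labels call WT, with no transgene, and they share strain, age, plate, sort and library protocol. Each cell had been sorted by flow cytometry with antibodies to CD11b, CD45, Ly6C, Ly6G and CD206 and sequenced by SmartSeq2, a full-length single-cell method without molecular identifiers. The unit of every test was the region sample, meaning the summed counts of the kept cells of 1 region and 1 replicate number. The series design gives 3 to 4 replicate mice per region and age and says that mice contributed more than 1 region. No label ties a replicate number to a mouse, so the p-values measure the spread between region samples, and these may not be independent between regions.

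Microglia are the resident macrophages of the brain. They keep a homeostatic programme that depends on CSF1 receptor and TGF-beta signals, sense nucleotides through purinergic receptors, tag and engulf synapses through complement and phagocytic receptors, and take up dying cells and myelin debris. In rodents the third postnatal week lies in the period in which cortical and hippocampal circuits are refined, and the question was whether microglia of these 2 forebrain regions differ in gene expression then.

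The regions differed somewhat in depth. Summed counts were 8870000, 7146319 and 8631441 in the cortex samples and 9655897, 11099068 and 10462096 in the hippocampus samples, so every hippocampus sample was deeper than every cortex sample. Median detected genes per cell were 2613, 2576 and 2558 in cortex and 2492, 2664 and 2724 in hippocampus. In cells thinned to 40000 reads the medians were 2372, 2355 and 2240 in cortex and 2110, 2170 and 2227 in hippocampus, which puts all hippocampus samples below all cortex samples (exact permutation p = 0.1, two-sided, the smallest that 3 against 3 samples allow; adjusted p = 0.233 over 7 measures). Per-cell mitochondrial shares had medians of 0.658% to 0.838% in cortex and 0.767% to 0.967% in hippocampus, and no well was left out for a high share. Median shares of ERCC spike-in reads were 0.166%, 0.152% and 0.153% in cortex and 0.194%, 0.184% and 0.195% in hippocampus. Every hippocampus sample thus lay above every cortex sample (exact permutation p = 0.1, adjusted p = 0.233), and the cause was not tested. Cortex filled plate columns 1 to 12 and hippocampus columns 13 to 24, so plate column and region changed together and cannot be told apart.

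No gene passed the threshold between the regions. Of 11490 genes tested, edgeR's quasi-likelihood test with Benjamini-Hochberg adjustment called 0 (0%), with a lowest adjusted p of 1. At an unadjusted p under 0.05 there were 389 genes (3.39% of those tested), of which 1.88% of those tested had the higher fitted level in hippocampus and 1.51% the lower. DESeq2 on the same counts called 28 genes (0.244%), 19 higher (0.165%) and 9 lower (0.0783%) in hippocampus. The median log2 difference of all genes tested, hippocampus minus cortex, was 0.0018. Genes whose 3 hippocampus values all lay above the 3 cortex values numbered 568 (4.94%), and 504 (4.39%) lay all below. Of the 20 splits of 3 against 3 samples, 1 puts all values above and 1 all below, which is near these shares.

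Region samples of the same region were no more alike than samples of different regions. On log2(CPM + 1) over the 11490 genes, where CPM are counts scaled to a common library size with edgeR's TMM factors, Pearson's r ranged from 0.811 to 0.833 (median 0.817) for the 6 pairs of 1 region. For the 9 pairs across regions it ranged from 0.814 to 0.830, with medians of 0.821 for the 3 pairs of the same replicate number and 0.818 for the other 6. These are correlations across genes, which are not independent replicates, and they are given as a description.

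For gene lists a call means edgeR's adjusted p under 0.05. DESeq2 called 1 member of any list, Spp1. The members described include those picked from a list for the smallest unadjusted p. For them the p-values, intervals and separation between regions are a description and no test. Counts of members with the regions apart are given for some lists only. No member was apart in the purinergic, immediate early, interferon, MHC class I and II, S phase and G2/M lists. Actin genes had 0 above and 2 below of 20, and lipid handling genes 0 above and 2 below of 13. No list was tested as a set.

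The genes that define homeostatic microglia were at nearly equal levels. P2ry12, the purinergic receptor that guides microglial processes, was at 8350, 10200 and 9910 CPM in the cortex samples and at 9070, 10300 and 9340 in the hippocampus samples. The ranges overlapped, and the log2 difference was 0.01 with a 95% interval from -0.20 to 0.23. Tmem119, a microglial membrane protein, was at 8380 ± 794 CPM in cortex and 7920 ± 745 in hippocampus (SD, n = 3 each; log2 -0.08, interval -0.30 to 0.14). For Cx3cr1, the fractalkine receptor, the means were 7600 ± 765 and 7340 ± 634, a log2 difference of -0.05 with an interval from -0.27 to 0.18. Cst3, the protease inhibitor cystatin C, had a log2 difference of -0.04 (interval -0.19 to 0.10). Reads of P2ry12 were found in 169 of 170 cortex cells and 173 of 174 hippocampus cells, and Csf1r, the receptor for CSF1 and IL-34, had reads in 169 and 174.

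**Figure D1:**
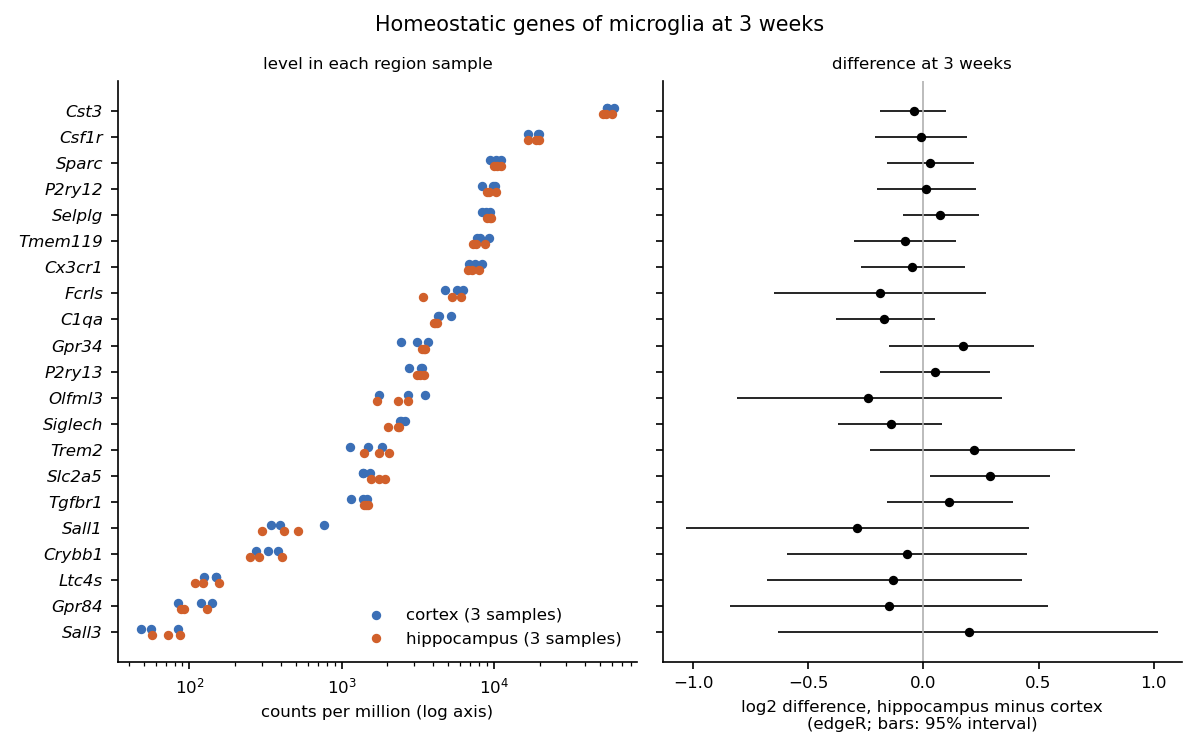
Left, CPM (log axis, not corrected for gene length) of 21 of the 22 homeostatic genes in each of the 3 cortex and 3 hippocampus samples. Right, log2 difference of hippocampus minus cortex with its 95% interval from edgeR; the differences lie between -0.29 (Sall1) and 0.29 (Slc2a5), and the interval of Slc2a5 alone leaves out 0.

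All 22 homeostatic genes were tested, 0 were called, 10 had a positive and 12 a negative log2 difference, and the median was -0.03. For 20 of the 22 the 95% interval lay within a 2-fold change in either direction. All hippocampus values lay above all cortex values for 1 of the 22 and below for 2, against 4.94% and 4.39% of all genes. Their summed level was 162026 ± 9370 CPM in cortex and 160555 ± 4150 in hippocampus (SD, n = 3 each). Slc2a5, a fructose transporter, was at 1390, 1390 and 1530 CPM in cortex and at 1940, 1570 and 1750 in hippocampus. Its values did not overlap between regions, the log2 difference was 0.29 (interval 0.03 to 0.55), and edgeR's unadjusted p was 0.0336. Sall1, a transcription factor of microglial identity, was at 767 CPM in cortex replicate 1 and between 299 and 519 in the other 5 samples, which gave a log2 difference of -0.29 with a wide interval from -1.03 to 0.46. Without cortex replicate 1 the difference of Sall1 was 0.16.

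Among the regulators of this programme, the CSF1 receptor and TGF-beta genes gave 0 calls of 10 and 0 of 14. The lists' medians were 0.19 and 0.15. Csf1r itself was at 18700 ± 1620 CPM in cortex and 18500 ± 1620 in hippocampus (SD, n = 3 each). Csf2rb, the shared beta chain of the GM-CSF, IL-3 and IL-5 receptors, was at 124, 154 and 67.5 CPM in cortex and at 54, 70.1 and 31.4 in hippocampus, so the lowest cortex sample lay below the highest hippocampus sample (log2 -1.15, edgeR unadjusted p = 0.0264). Smad3 and Smad2, which carry the TGF-beta signal to the nucleus, had cortex means of 67.3 ± 32.8 and 52.3 ± 11.8 CPM and hippocampus means of 121 ± 21.3 and 85.8 ± 9.07. Their groups did not overlap, with log2 differences of 0.85 (interval -0.11 to 1.81) and 0.71 (interval -0.03 to 1.45). The TGF-beta list had 10 positive and 4 negative differences, and 3 of 14 members had all hippocampus values above all cortex values, against 4.94% of all genes.

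Of 19 transcription factor genes 0 were called, with 8 positive and 11 negative differences and a median of -0.08. The groups were apart for 4 of them, 2 in each direction, against 4.94% above and 4.39% below among all genes. The 2 above were Smad3, given with the TGF-beta genes, and Klf6, a zinc finger factor named after its values were seen, at 137, 124 and 116 CPM in cortex and at 163, 141 and 173 in hippocampus. Mef2a, a factor at microglial enhancers, was at 518, 515 and 566 CPM in cortex and at 429, 420 and 375 in hippocampus, with every hippocampus value below every cortex value (log2 -0.38, interval -0.70 to -0.07; edgeR unadjusted p = 0.0223). Irf1, an interferon regulatory factor, was at 105, 150 and 175 CPM in cortex and at 35.1, 25 and 95.8 in hippocampus. These values did not overlap either, and the log2 difference was -1.47 with an interval from -2.64 to -0.30.

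The C1q genes, which encode the recognition molecule of the classical complement pathway, all had the lower mean in hippocampus. C1qc was at 3180, 3290 and 3170 CPM in cortex and at 2690, 2860 and 2810 in hippocampus. The 2 ranges were apart, the log2 difference was -0.20 (interval -0.39 to -0.02), and edgeR's unadjusted p was 0.0323. C1qa and C1qb each had a log2 difference of -0.17, with intervals from -0.38 to 0.05 and from -0.40 to 0.05. Over the 7 complement genes tested 0 were called, 5 differences were negative, the median was -0.17, and 2 genes had all hippocampus values below all cortex values, against 4.39% of all genes.

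Receptors by which microglia contact and engulf synapses or dying cells gave 0 calls of 16 and a median of 0.03. Itgb2, the beta chain of complement receptor 3, was at 686, 613 and 662 CPM in cortex and at 725, 817 and 757 in hippocampus, apart by group but with an interval that held 0 (log2 0.23, interval -0.05 to 0.51). Purinergic and ion channel genes gave 0 calls of 14 and a median of 0.03. The list does not hold P2rx1, which DESeq2 called (log2 -1.79, DESeq2 adjusted p = 0.00493). P2rx1 is described with the genes of smallest p. P2rx4, an ATP-gated channel, was at 71.3, 118 and 130 CPM in cortex and at 219, 111 and 202 in hippocampus, where replicate 2 lay within the cortex range.

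Genes of phagocytic and disease-associated microglia gave 0 calls of 15 tested with edgeR, against 1 with DESeq2 (Spp1, adjusted p = 0.00279). There were 10 positive differences and the median was 0.15, which is the same with Spp1 at the ratio to a floor given further on. Apoe, the lipid carrier apolipoprotein E, was at 1820, 2670 and 1830 CPM in cortex and at 1770, 3730 and 2560 in hippocampus. Hippocampus replicate 2 was the highest and replicate 1 the lowest of the 6, and the log2 difference of 0.35 had an interval from -0.25 to 0.96. Cst7, or cystatin F, was at 1.33, 9.69 and 26.4 CPM in cortex and at 0, 0.0912 and 1.35 in hippocampus, and 1 cell gave 68.2% of its cortex reads. Spp1, or osteopontin, had 0 reads in cortex and is described with the genes of smallest p.

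Inflammatory signalling genes gave no edgeR call, but their intervals were wide: none of the 11 chemokine and 12 interferon genes had one within a 2-fold change. Of 11 chemokine and cytokine genes 0 were called, and the median difference was 0.38. Ccl9, a CC chemokine, was at 78.4, 107 and 83.7 CPM in cortex and at 132, 253 and 168 in hippocampus. Every hippocampus sample was above every cortex sample, the log2 difference was 1.04 (95% interval 0.35 to 1.73), and edgeR's unadjusted p was 0.00828. NF-kB feedback genes gave 0 calls of 11 with a median of 0.33, and immediate early and stress genes 0 of 15 with a median of 0.03. Egr1, an immediate early gene, was at 98.1 CPM in hippocampus replicate 1 and between 0.143 and 7.12 in the other 5 samples. Type I interferon genes gave 0 calls of 12 (median 0.19), and MHC class I genes 0 of 14 (median 0.02). Of 7 MHC class II genes 0 were called (median 0.11). Cd74, the invariant chain, was at 21, 13.3 and 5.51 CPM in cortex and at 55.1, 17.7 and 97.8 in hippocampus, where replicate 2 lay below cortex replicate 1 (log2 2.10, edgeR unadjusted p = 0.0216).

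Metabolic lists gave no call. Of 16 glycolysis genes 12 had positive differences, with a median of 0.19, and 3 had all hippocampus values above all cortex values, against 4.94% of all genes. Pfkl, the liver-type phosphofructokinase, was at 103, 59.0 and 91.1 CPM in cortex and at 189, 134 and 178 in hippocampus. Its groups were apart, with a log2 difference of 0.98 (interval 0.31 to 1.66; edgeR unadjusted p = 0.00960). Ldha, a lactate dehydrogenase subunit, was at 139 ± 15.9 and 209 ± 31.5 CPM (SD, n = 3 each) and was also apart. Among 14 cholesterol synthesis genes the median was 0.43 and 8 differences were positive. Hmgcs1, the HMG-CoA synthase, was at 12.3, 20.7 and 30.8 CPM in cortex and 46.5, 40.8 and 56.9 in hippocampus, and its groups were apart (log2 1.17). Mvk, or mevalonate kinase, was at 0.556, 0 and 1.52 CPM in cortex and at 26.5, 7.85 and 7.72 in hippocampus, also apart. Of 21 lysosome genes 20 had an interval within a 2-fold change, and the median was 0.03. Ctsc, or cathepsin C, was at 704, 833 and 556 CPM in cortex and at 923, 946 and 990 in hippocampus, with no overlap (log2 0.45, interval 0.08 to 0.82).

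Nuclear genes of oxidative phosphorylation had a median of -0.07 over 78 genes and cytosolic ribosomal proteins a median of 0.04 over 80, with 0 calls in both. Atp5a1, an ATP synthase subunit, was at 472, 609 and 520 CPM in cortex and at 346, 405 and 376 in hippocampus, all below the cortex values (log2 -0.51, interval -0.86 to -0.15). Sdha, a subunit of succinate dehydrogenase, was at 261 ± 52.2 CPM in cortex and 389 ± 102 in hippocampus and overlapped (log2 0.58). Rpl4, a protein of the large ribosomal subunit, was at 325 ± 53.0 and 455 ± 27.6 CPM, with no overlap (log2 0.49). Of 13 mitochondrially encoded protein genes 7 were tested and 0 called (median -0.11). The other 6, mt-Nd3, mt-Nd4l, mt-Co2, mt-Co3, mt-Atp6 and mt-Atp8, are listed at 0 reads in all 6 samples, so the mitochondrial shares above rest on the remaining genes. Actin cytoskeleton genes gave 0 calls of 20 (median -0.04), cholesterol efflux and lipid handling genes 0 of 13 (median 0.13), and S phase genes 0 of 14 (median -0.06).

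**Figure D2:**
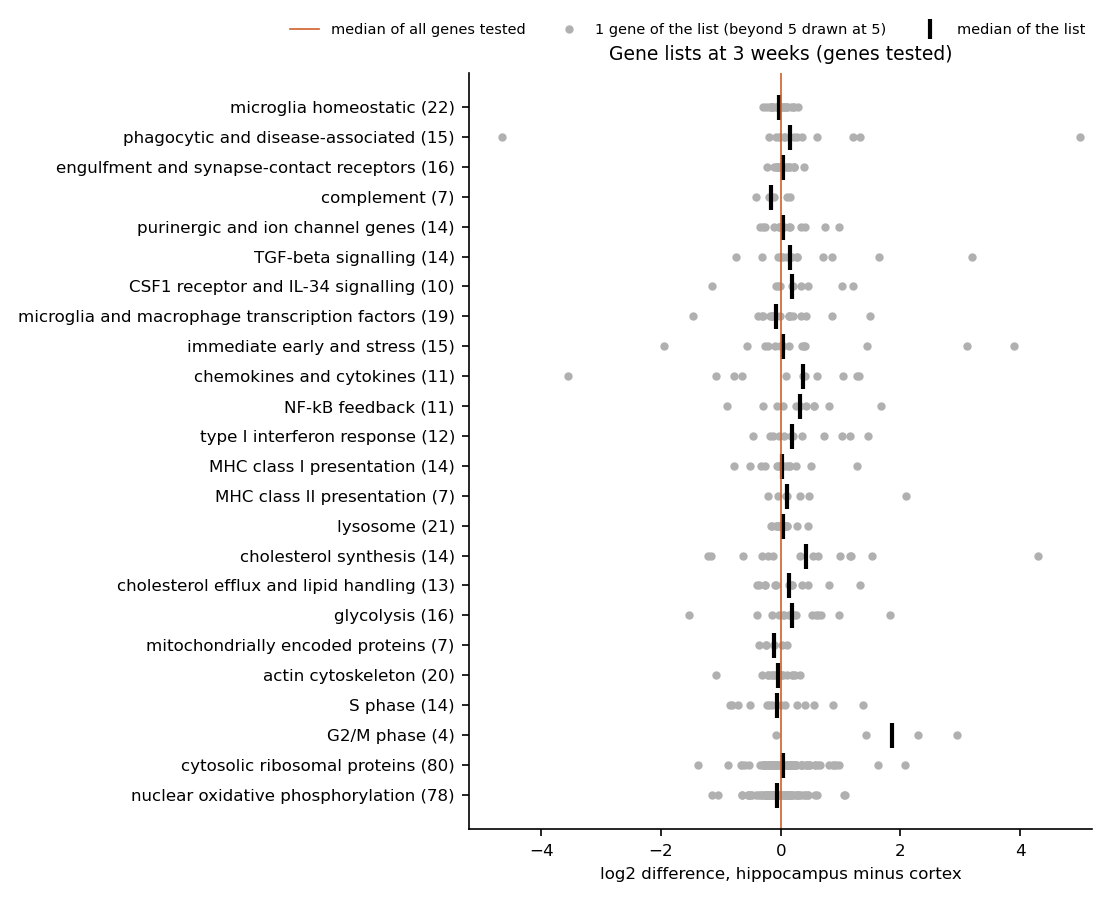
Log2 difference of hippocampus minus cortex (x axis) for every tested gene of 24 lists (grey points) with each list's median (black bar) and the median of all genes tested (line at 0.0018). List medians lie between -0.17 (complement) and 0.43 (cholesterol synthesis), except that of the 4 G2/M genes at 1.86, which had few reads.

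How closely these comparisons bound a difference depended on the level of the gene. At a mean of 1000 CPM or more, 98 of 99 genes had a 95% interval within a 2-fold change in either direction, and the median half-width was 0.27 on the log2 scale. Between 300 and 1000 CPM this was so for 335 of 348 genes (96.3%), and between 100 and 300 for 832 of 1292 (64.4%). Between 30 and 100 CPM it was so for 369 of 3486 (10.6%), and below 30 CPM for none of 3116 and 3149 genes in the bins from 10 to 30 and under 10. In all, 1634 of 11490 genes had such an interval. The genes under 10 CPM were read in a median of 4.36% of cells, which is a handful of cells per region sample.

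**Figure D3:**
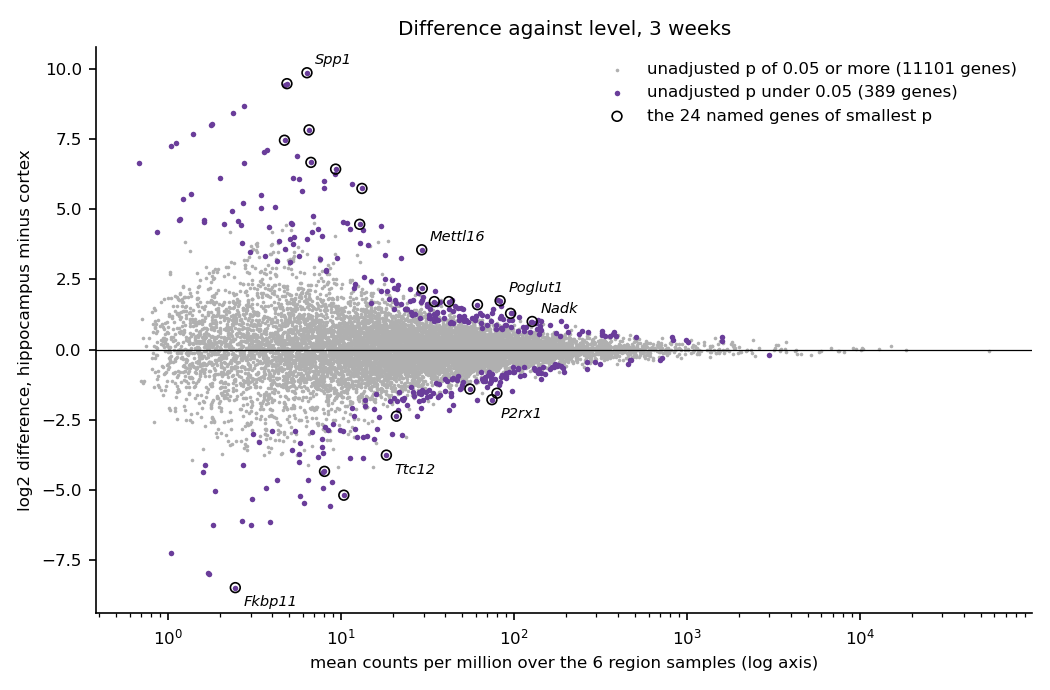
Log2 difference of hippocampus minus cortex (y axis) against the mean CPM over the 6 region samples (x axis, log axis) for the 11490 genes tested. The 389 genes with an unadjusted p under 0.05 are purple and the 24 named genes of smallest p are circled; the spread narrows as the level grows, and no point passed edgeR's adjustment, whereas DESeq2 called 28.

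Shares of cells in defined states did not differ beyond the spread between samples. Cells were thinned to 40000 reads, which left out 42 of 170 cortex cells and 21 of 174 hippocampus cells as too shallow. Cycling was scored as reads from 5 or more of the 20 listed G2/M genes. This held for 0 of 128 cortex cells and 0 of 153 hippocampus cells, which allows shares of up to 2.34% and 1.96%. Without thinning, 1 of 170 cortex cells and 0 of 174 hippocampus cells met it. Cells with reads of at least 3 of 15 chemokine and cytokine genes made up 12.2%, 29.3% and 15.2% of the cortex samples and 14.8%, 24.1% and 17.8% of the hippocampus samples. In both regions replicate 2 had the highest share, the means were 18.9% ± 9.11 and 18.9% ± 4.73 (SD, n = 3 each), and the exact permutation p was 1. Cells with reads of at least 4 of 22 interferon response genes were 5 of 128 in cortex (3.91%, exact binomial 95% interval 1.28% to 8.88%) and 6 of 153 in hippocampus (3.92%, 1.45% to 8.34%). By sample they made up 2.44%, 7.32% and 2.17% in cortex and 0%, 3.70% and 8.89% in hippocampus (exact permutation p = 1). Intervals and limits from a count of 0 cover counting error only.

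Markers of other cells ranged from nearly none for T cells and neutrophils to means of 495 to 702 CPM for the endothelial and B cell lists. Summed over each list, T and NK cell markers were at 0 to 0.222 CPM in cortex and 0 to 0.104 in hippocampus, with Cd3d, Cd3g, Trbc2, Nkg7 and Gzma at 0 in all 6 samples. Neutrophil markers reached 2.00 and 4.73 CPM at most, with S100a8 and Retnlg at 0, and choroid plexus and ependymal markers 9.45 and 2.65. Neuron markers summed to 11.4 to 31.4 CPM in cortex and 12.4 to 29.1 in hippocampus. Markers of hippocampal principal neurons summed to 77.1 to 137 CPM in cortex and 78.7 to 130 in hippocampus, with Fibcd1 and C1ql2 at 0, and those of neocortical projection neurons to 145 to 196 and 109 to 220, with Fezf2 and Tbr1 at 0. In each of these lists only 3 of 10 genes had enough reads to be tested, so the sums do not measure neuronal RNA as a whole. Astrocyte markers summed to 195 ± 85.9 and 145 ± 35.2 CPM (SD, n = 3 each) with Aqp4 at 0, and endothelial markers to 624 ± 145 and 495 ± 69.5, most of it Bsg. B cell markers summed to 554 to 681 CPM in cortex and 552 to 986 in hippocampus, most of it Ighm, which had reads in 110 of 170 and 123 of 174 cells, with Cd79a at 0. Oligodendrocyte markers summed to 189 ± 37.3 and 174 ± 57.3 CPM, their precursors' markers to at most 4.56 and 11.5, monocyte markers to at most 28.7 and 22.9 with Ly6c2 at 0, and erythroid markers to at most 2.11 and 5.12. Mrc1, whose protein CD206 was stained in the sort, was at 54.4 CPM in cortex replicate 1 and between 0 and 1.46 in the other 5 samples. Border macrophage markers as a list summed to 275 to 491 CPM in cortex and 286 to 346 in hippocampus, largely through Stab1, with Ms4a7 and Fcna at 0. In sums of cells, fewer cells of a type and less RNA per cell cannot be told apart, and the part of other cells in the gene differences was not tested. Xist was at 596 to 891 CPM in all 6 samples, and Ddx3y at 0 to 0.111.

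The 24 genes with the smallest unadjusted p were named as values, since none passed edgeR's adjustment, whereas DESeq2 called 17 of them; 7 gene models without a symbol of their own were passed over. Their edgeR unadjusted p ran from 0.000332 to 0.00455, 16 had the higher level in hippocampus and 8 the lower, and the groups were apart in all 24. Because these values chose the genes, their separation is a description and no test. Only 5 of the 24 had a mean of at least 100 CPM in the higher region.

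**Figure D4:**
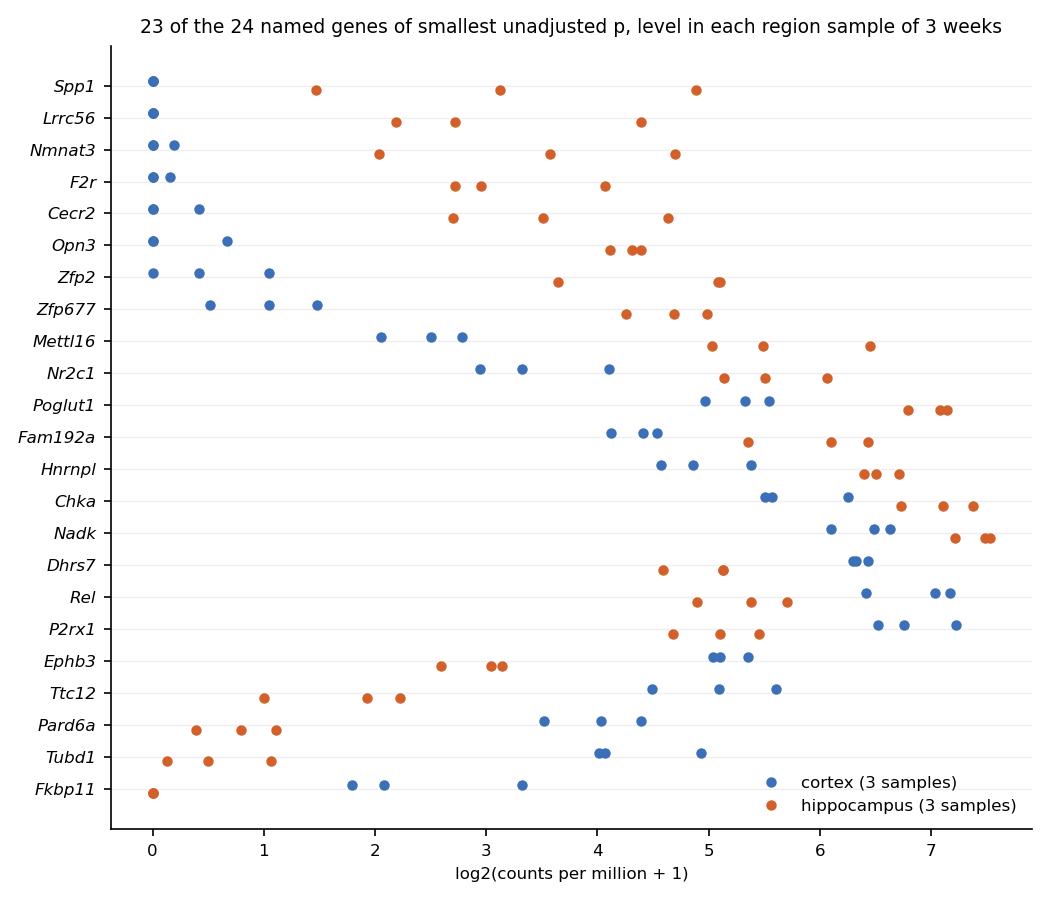
Level of 23 of the 24 genes, as log2(CPM + 1) on the x axis, in each of the 3 cortex and 3 hippocampus samples. In all 23 the regions do not overlap, which the choice of the genes brings with it; Spp1 and Lrrc56 have 0 reads in cortex and Fkbp11 has 0 in hippocampus.

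Mettl16, an RNA methyltransferase that regulates S-adenosylmethionine supply (chr11:74770830-74828525, GRCm38), was at 4.67, 3.14 and 5.86 CPM in cortex and at 31.7, 86.3 and 43.9 in hippocampus. The log2 difference was 3.56 ± 0.61 (SE). It was read in 16 of 170 cortex cells and 31 of 174 hippocampus cells, and in cells thinned to 40000 reads the shares overlapped between regions. Poglut1, an O-glucosyltransferase that modifies Notch receptors (chr16:38525137-38550258), was at 39.1, 30.2 and 45.5 CPM in cortex and at 140, 134 and 110 in hippocampus. It was read in 19 and 39 cells, and the difference was 3.34-fold (95% interval 2.05 to 5.43). Hnrnpl, a splicing regulator, was at 22.8, 40.6 and 28.1 CPM in cortex and 83.3, 104 and 90.0 in hippocampus. Of all 24 genes Hnrnpl was read in the most cells, 90 of 170 and 103 of 174, and the shares of thinned cells with reads were 41.4% ± 4.88 and 42.0% ± 7.71 (SD, n = 3 each). The shares overlapped between regions, whereas the levels did not.

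Metabolic enzymes were among the others with the higher level in hippocampus. Nadk, the cytosolic NAD kinase that makes NADP, was at 98.2, 88.5 and 67.8 CPM in cortex and at 184, 148 and 178 in hippocampus, a 2.01-fold difference (interval 1.34 to 3.00). Chka, a choline kinase of phosphatidylcholine synthesis, was at 44.5, 75.4 and 46.5 CPM in cortex and at 105, 137 and 165 in hippocampus, 2.44-fold (interval 1.44 to 4.14). Nr2c1, an orphan nuclear receptor, was at 10.6 ± 4.99 and 48.3 ± 16.2 CPM, and Fam192a at 19.6 ± 2.95 and 64.3 ± 22.8 (SD, n = 3 each).

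The remaining genes with the higher level in hippocampus rested on few cells. Spp1 (chr5:104435118-104441050), which encodes the secreted phosphoprotein osteopontin, had 0 reads in the 3 cortex samples and was at 1.76, 28.6 and 7.72 CPM in hippocampus. The hippocampus mean was 104-fold above a floor of 3 counts over the cortex group. That ratio leaves out the spread between hippocampus samples. edgeR's fitted difference was 940-fold, with an interval from 23.5. With 0 reads in cortex the fitted fold depends on how the fit treats a count of 0, so this is no firm lower bound. The 410 reads came from 7 of 174 cells, and 1 cell gave 47.3% of them. Lrrc56 had 0 reads in cortex and was at 20.0, 3.56 and 5.6 CPM in hippocampus, from 4 cells. Its hippocampus mean was 79.6-fold above the same floor. edgeR's fitted difference was 721-fold, with an interval from 23.4 that is likewise no firm lower bound. Opn3, the opsin encephalopsin, had 5 reads in 1 cortex cell and was at 20.0, 16.3 and 18.9 CPM in hippocampus, from 7 cells. The thrombin receptor gene F2r and Nmnat3, a NAD synthesis enzyme, each had 1 read in cortex and 290 and 417 in hippocampus, from 4 and 8 cells. Cecr2, a bromodomain protein of chromatin remodelling, had 3 reads in cortex and 423 in hippocampus, from 12 cells. The zinc finger genes Zfp677 and Zfp2 had 28 and 12 reads in cortex and 755 and 802 in hippocampus, from 13 and 8 hippocampus cells.

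Among the 8 genes with the lower level in hippocampus, P2rx1 and Rel belong to pathways of microglia. P2rx1, an ATP-gated cation channel (chr11:72999103-73015200), was at 149, 107 and 90.7 CPM in cortex and at 33.4, 24.6 and 42.7 in hippocampus. It was 3.45-fold lower in hippocampus, and the share of thinned cells with reads was 27.5% ± 3.94 in cortex and 9.88% ± 3.85 in hippocampus (SD, n = 3 each). Rel, the NF-kB subunit c-Rel (chr11:23736847-23770970), was at 143, 130 and 84.3 CPM in cortex and at 40.8, 28.8 and 51.3 in hippocampus, 2.96-fold lower. It was read in 69 cortex cells and 65 hippocampus cells, and the shares of thinned cells overlapped, at 34.8% ± 12.7 and 28.5% ± 4.49. Dhrs7, a short-chain dehydrogenase, was at 77.6, 85.5 and 79.0 CPM in cortex and at 34.0, 23.1 and 34.1 in hippocampus, 2.66-fold lower. Ephb3, an ephrin receptor, was at 35 ± 4.27 CPM in cortex and 6.71 ± 1.49 in hippocampus, read in 18 and 4 cells.

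The others were low in both regions. Ttc12, an assembly factor of ciliary dynein, was at 34.1 ± 13.1 CPM in cortex and 2.49 ± 1.36 in hippocampus, from 13 and 5 cells. Tubd1, or delta-tubulin, was at 20.2 ± 8.11 and 0.535 ± 0.510, from 11 and 5 cells, and the polarity gene Pard6a at 15.3 ± 4.75 and 0.733 ± 0.424, from 6 and 4 cells. Fkbp11, a prolyl isomerase of the secretory pathway, was at 3.22, 8.98 and 2.46 CPM in cortex, from 5 cells, and had 0 reads in hippocampus. Its cortex mean was 50.4-fold above a floor set in the same way for hippocampus. That ratio leaves out the spread between cortex samples. The interval of edgeR's log2 difference ended at -3.76, which with 0 reads in hippocampus is no firm bound either. Shares of thinned cells with reads were apart between regions for 20 of the 24 genes, the exceptions being Mettl16, Zfp677, Hnrnpl and Rel. The genes were chosen from sums of the same cells, so this count is a description and no test. It stands without the like share over all genes. Reads of 2 of the 24 were seen in the 4 blank wells of the plate, 1 read of Rel and 9 of Chka.

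DESeq2's 28 genes included 17 of these 24. Of the 28, 17 had 0 reads in at least 1 region sample, 19 had a mean under 1 CPM in the lower region, and 4 had means of at least 10 CPM in both, namely Poglut1, Hnrnpl, P2rx1 and Rel. DESeq2 adjusted p was 0.000627 for Poglut1, 0.00493 for P2rx1 and 0.0276 for Hnrnpl and Rel, and 9.92e-05 for Mettl16. All 28 had an edgeR unadjusted p under 0.05. The count of calls thus depended on the tool.

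Set beside the other 3 regions of the same age, in a fit of all 15 region samples, 15 of the 16 genes with the higher level in hippocampus had their lowest mean in cortex, and 9 had their highest in hippocampus. Of the 8 with the lower level, all 8 had their highest mean in cortex and 6 their lowest in hippocampus. The extremes among regions follow in part from how the genes were chosen. P2rx1 means were 84.0 CPM in corpus callosum, 83.2 in spinal cord and 24.7 in cerebellum. Poglut1 was at 102, 113 and 77.2 in corpus callosum, cerebellum and spinal cord, and Hnrnpl at 81.8, 70.0 and 72.2. Spp1 was at 25 CPM in corpus callosum, 65.8 in spinal cord and 1240 ± 1950 in cerebellum (SD, n = 3), where the SD exceeds the mean. Among the homeostatic genes Tmem119 means were 8450 in cortex and 8090 in hippocampus, against 6110, 4530 and 5670 in corpus callosum, cerebellum and spinal cord. Lag3, an immune checkpoint receptor, was at 1030 and 851, against 588, 494 and 408. The other 3 regions lay on other plates, and these regional orders were not tested.

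The same regions at 16 weeks gave a second view from 4 cortex and 4 hippocampus samples (340 kept cells) that the comparison at 3 weeks did not use. There each region lay on its own plate, so region and plate cannot be told apart. Of 11225 genes edgeR called 0 (0%), with 391 (3.48%) at an unadjusted p under 0.05, and DESeq2 called 25 (0.223%). Of the 24 genes, 21 could be tested at 16 weeks, and 0 had an unadjusted p under 0.05. The mean lay on the same side as at 3 weeks for 8 of the 24. P2rx1 was at 127, 68.9, 78.3 and 76.2 CPM in cortex and at 60.4, 63.3, 51.8 and 20.6 in hippocampus. Dhrs7 was at 112, 84.8, 71.9 and 93.6 CPM in cortex and at 42.5, 70.7, 64.2 and 38.0 in hippocampus. These were the 2 genes of the 24 that were apart in the same direction at both ages, where 1.66% of all genes tested at 16 weeks were lower in all hippocampus samples than in all cortex samples and 1.51% higher. Their log2 differences at 16 weeks were -0.84 and -0.75 (edgeR unadjusted p = 0.0747 and 0.0525).

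**Figure D5:**
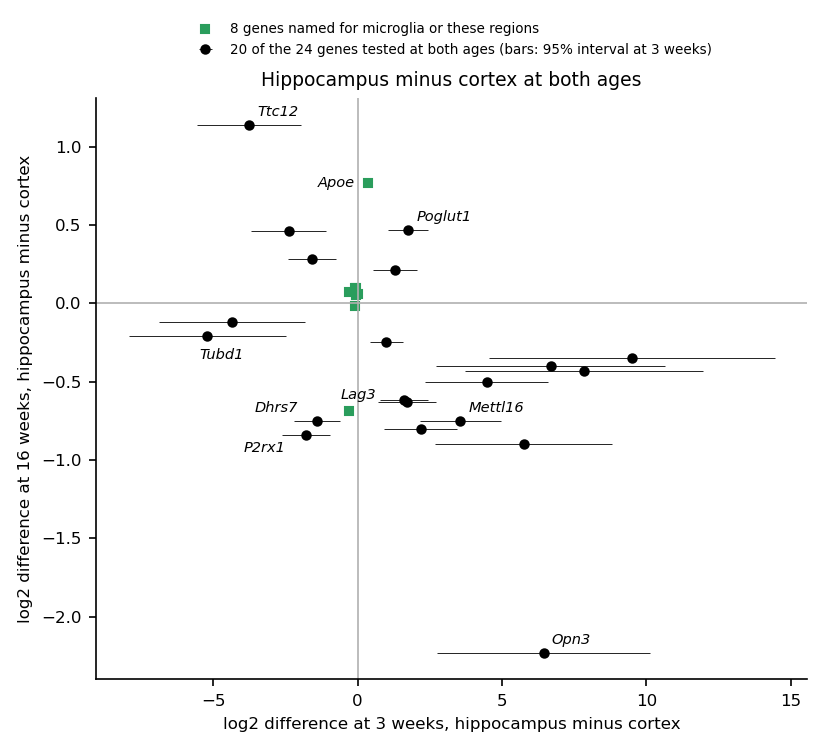
Log2 difference of hippocampus minus cortex at 3 weeks (x axis, bars are 95% intervals) and at 16 weeks (y axis) for 20 of the 24 genes, all tested at both ages (black), and 8 genes named for microglia or these regions (green). P2rx1 and Dhrs7 lie below 0 on both axes, Opn3 is at 6.44 and -2.23, and most green points lie close to 0 at both ages.

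For other genes the means at 16 weeks lay on the opposite side. Mettl16 was at 18.9, 10.3, 10.1 and 58.6 CPM in cortex and at 32.2, 15.1, 0.531 and 10.2 in hippocampus, and Hnrnpl at 63.9, 75.9, 102 and 115 in cortex and at 47.8, 28.9, 92.3 and 63.7 in hippocampus. Spp1 was at 0 to 4.46 CPM in cortex and had 0 reads in hippocampus. A test of the change in the regional difference between the ages (edgeR interaction, 14 region samples) called 0 of 14313 genes (0%), with 746 (5.21%) at an unadjusted p under 0.05, and DESeq2 called 89 (0.622%). At that unadjusted level were 15 of the 24. These were chosen for their differences at 3 weeks, which enter the test of change as well, so the count is a description and no test. The differences at 3 and 16 weeks of all 10532 genes tested at both ages had a Pearson's r of -0.018 across genes, which are not independent replicates. Over the 1487 genes of at least 100 CPM at both ages r was -0.022, and 50.4% had the same sign.

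Among the genes named for microglia or these regions, Apoe and Lag3 had an unadjusted p under 0.05 at 16 weeks. Lag3 was at 455, 492, 401 and 486 CPM in cortex and at 316, 316, 204 and 300 in hippocampus (log2 -0.69, edgeR unadjusted p = 0.00395). At 3 weeks it was at 848, 1050 and 1150 in cortex and 788, 735 and 976 in hippocampus, with overlap and a log2 difference of -0.29 (interval -0.66 to 0.08). Apoe was at 521, 771, 449 and 631 CPM in cortex and 1580, 1030, 630 and 803 in hippocampus at 16 weeks (log2 0.77, unadjusted p = 0.0199), against 0.35 at 3 weeks. The change between ages had an edgeR unadjusted p of 0.116 for Lag3 and 0.348 for Apoe. Malat1, a nuclear noncoding RNA, and Srgn, the proteoglycan serglycin, had log2 differences of -0.10 and -0.02 at 3 weeks and -0.02 and 0.31 at 16 weeks.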

How the data were processed

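The authors deposited unnormalised read counts per gene and well, with STAR 2.5.2b, featureCounts 1.6.2 and GRCm38 named in the submitters' processing notes. Gene positions and a Length column stand in the table as well, per the file headers, and were used to place genes only. Strand use in counting is not given in the sources used here, so overlapping antisense genes may share reads.

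Wells of plate columns 1 and 2 also held reads of same-row wells whose names start alike; these were subtracted (224 wells; 0 gene rows fell below 0). Here this touched cortex replicate 1 alone. Wells with at least 500 genes and at most 20% mitochondrial reads were summed per region sample; doublets were not sought. Tests used edgeR 4.0.16 (R 4.3.3; TMM, filterByExpr, robust quasi-likelihood F tests, two-sided, Benjamini-Hochberg over all genes tested, threshold 0.05). DESeq2 1.42.0, RLE scaling, other filters, thinning and left-out samples were alternatives. Sample values used exact permutation tests (scipy 1.17.1).

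Named genes were those of adjusted p under 0.05 or, failing 20 such genes, the 24 of smallest unadjusted p, the leading members of each list and 14 fixed genes. Leading members were those of smallest unadjusted p and the one of highest mean CPM. Other members and the 16-week values of these were added to describe their lists. A few genes are counted but not reported by name here. Members and lists were chosen with earlier results of these data known.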

Additional observations from a re-analysis of the deposited data

Results flagged for a closer look

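At 3 weeks each region had 3 samples, too few to single out a sample. In the 16-week groups of 4, a value was picked out when its gap to the nearest other, as a share of the group's range, exceeded Dixon's 95% critical value. Chance gives this in about 1 of 20 groups of normally distributed values. Such a value was found in 15 of 76 groups, many of them for genes read in few cells. Where the other values are 0 or nearly so, that rate does not hold. The highest of 4 cortex samples was P2rx1 at 127 CPM (others 68.9 to 78.3), F2r at 1.16 (others 0), Spp1 at 4.46 (0 to 0.121), Fkbp11 at 2.81 (0) and Ttr, a choroid plexus transcript, at 7.52 (0 to 0.227). The lowest of the cortex samples was Ephb3 at 1.55 (others 16.1 to 17.3). The highest of 4 hippocampus samples was Nmnat3 at 37.4 CPM (others 0.744 to 3.24), Opn3 at 13.1 (0), Fkbp11 at 0.106 (0), Cecr2 at 20.8 (0 to 3.04), Mrc1 at 19.9 (0 to 0.884), Ttr at 15.0 (0 to 2.55), Xist at 1270 (868 to 898) and Ddx3y at 0.0845 (0). The lowest of the hippocampus samples was Lag3 at 204 CPM (others 300 to 316). The cause of these values was not tested.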

How the results depend on the processing

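The edgeR count of 0 genes at 3 weeks was the same with counts as deposited, without plate columns 1 and 2, with RLE scaling, with cells of at least 1000 genes, with thinned cells, in fits of 15 and 51 region samples, and without each sample in turn (range 0 to 0). DESeq2 gave 28 and no filter on low counts gave 1, Mettl16 (log2 3.57). At 16 weeks DESeq2 gave 25 and no filter 11, and for the change between ages DESeq2 gave 89 and no filter 8. Without the filter the median degrees of freedom were 123000, 186000 and 359000, against 8.33, 10.3 and 15.7 in the reported fits. Those fits thus treat the spread between samples as nearly known, and their calls are weak support for any gene. With the replicate number as a block the counts stayed at 0, with 366 genes at an unadjusted p under 0.05 against 389. The block turned the sign of 1 named gene, Mrc1. Same-numbered samples of the 2 regions deviated together weakly (r 0.033, 0.038 and 0.037), and pairs of other numbers gave -0.014 to -0.023. Each sample was thus most like its own number. At 16 weeks same-numbered pairs gave 0.052, 0.004, 0.040 and 0.032. These values do not settle whether a number marks 1 mouse, and the reported fits did not pair the samples.

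DESeq2 called 17 of the 24 genes of smallest p, with log2 differences of 3.56 for Mettl16, 1.74 for Poglut1, -1.79 for P2rx1 and -1.57 for Rel. Signs turned for 8 genes whose intervals held 0 in the reported fit. Srgn was at 0.10 as deposited, 0.03 in the fit of 51 region samples, and -0.31 to 0.15 without each sample in turn, turning without cortex replicate 1 (0.14) and hippocampus replicates 2 (0.06) and 3 (0.15). P2ry12 was at -0.03 as deposited and without plate columns 1 and 2, and at -0.06 to 0.07 without each sample, turning without cortex replicate 1 (-0.06) and hippocampus replicate 2 (-0.05). Sall1 was at 0.04 as deposited and at -0.50 to 0.16 without each sample, the last without cortex replicate 1. Mrc1, whose cortex reads lay in that sample, was at 2.62 with the replicate block, and at -4.78 to 6.20 without each sample, the last without cortex replicate 1. Malat1 was at 0.01 in thinned cells. Without each sample Cst3 ranged from -0.10 to 0.01 (cortex replicate 2 left out), Xist from -0.05 (hippocampus replicate 2) to 0.27, and Cx3cr1 from -0.12 to 0.03 (cortex replicate 3), with 0.00 without hippocampus replicate 3. The 26 list members with an unadjusted p under 0.1 had the same direction in all 415 refits. They were chosen by that p in the reported fit, and the refits reuse its cells, so this is a description and no test.

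As deposited, cortex replicate 1 also holds other wells' reads, and hippocampus minus cortex turned to -10444096 for summed counts, -23200 for median counts per cell and -911 for median genes. The chemokine share differed by 1.18 percentage points without thinning, and the interferon share by -0.351 at 20000 reads and -0.885 with at least 6 genes. Low levels limit what can be seen: below 30 CPM no interval lay within a 2-fold change, and genes under 10 CPM were read in a median of 4.36% of cells, so depth and the number of cells with reads were not separated.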

Other observations

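Among the 10532 genes tested at both ages, 19 had an edgeR unadjusted p under 0.05 at 3 and at 16 weeks, which is 5.44% of the 349 such genes at 3 weeks and 5.09% of the 373 at 16 weeks. Among all 10532 genes the shares were 3.54% at 16 weeks and 3.31% at 3 weeks. The differences had the same sign in 7 of the 19 (Ccdc93, Fam171a1, Iffo2, Ly86, Nxf1, Slc34a2 and Vdac1) and the opposite sign in 12. These genes were chosen after their values were seen, none passed edgeR's adjustment, DESeq2 called Fam171a1 at 3 weeks, and at 16 weeks region and plate changed together. Ccdc93, a subunit of an endosomal recycling complex, was at 80.6, 97.3 and 96.4 CPM in cortex and 148, 219 and 161 in hippocampus at 3 weeks. At 16 weeks its 4 cortex samples lay between 47.8 and 110 and its hippocampus samples at 187 or above, so the regions were apart at both ages (log2 0.95 and 1.49, edgeR unadjusted p = 0.00523 and 0.000480). Ly86, the partner of the Toll-like receptor relative RP105, was at 736 ± 33.6 and 923 ± 118 CPM at 3 weeks (SD, n = 3 each) and 998 ± 125 and 1370 ± 237 at 16 weeks (n = 4 each). Slc34a2, a sodium phosphate cotransporter, was at 1360 ± 235 and 1840 ± 201 CPM and then at 1580 ± 177 and 2060 ± 449. Nxf1, the mRNA export receptor, was at 299 ± 76.6 and 458 ± 33.6 and then at 294 ± 21 and 406 ± 40.8, and Vdac1, the mitochondrial outer membrane channel, at 81.1 ± 14.2 and 129 ± 26.6 and then at 67.7 ± 10.2 and 110 ± 21.8. Among the 12 of opposite sign, Itpr2, an intracellular calcium release channel, was at 370, 270 and 338 CPM in cortex and 179, 211 and 219 in hippocampus at 3 weeks. At 16 weeks it was at 323, 341, 375 and 283 in cortex and 653, 422, 503 and 309 in hippocampus (log2 -0.68 and then 0.51). Plbd2, a lysosomal phospholipase-like protein, was at 138 and 90.6 CPM on average at 3 weeks and at 109 and 232 at 16 weeks (log2 -0.61 and then 1.10).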
